A study of Mus musculus with 8 samples.

Results

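The genes described here are 40 heat shock and unfolded protein response (UPR) genes, chosen by name from the 55335 genes of the count table. No measured value enters the rule, but the names were chosen with earlier results of these data known. The 40 names matched 41 genes of the table, since *Ddit3* stands there under a pair of identifiers, of which the second had no count in any sample. All 40 passed the filter on low counts and were tested among 15378 genes. They comprise 13 cytosolic chaperones and their regulators, 3 mitochondrial chaperones, 13 ER chaperones and folding enzymes, 2 genes of ER-associated degradation, 3 UPR sensors, 3 UPR transcription factors and 3 target genes of ATF4 and CHOP.

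RNA was sequenced from tumor-infiltrating lymphocytes (TILs) of MC38 tumors in C57BL/6 mice, sorted as TCRβ+CD8+ cells positive for CD45.2, CD44 and PD-1, a receptor of activated and exhausted T cells, to ask what the histone demethylase LSD1 regulates in these cells. The 4 WT samples (S1 to S4) came from Lsd1f/f littermates and the 4 KO samples (S5 to S8) from Cd4-Cre+Lsd1f/f mice, so that both genotypes carry the floxed allele and KO alone carries the Cre. The MC38 colon carcinoma line was implanted subcutaneously, and Cd4-Cre deletes floxed DNA in developing T cells, CD4+ as well as CD8+. Each WT sample pooled 2 mice and each KO sample was 1 mouse, so pooling and genotype cannot be told apart. Cells, 10000 to 20000 per sample, were collected on day 18 by the protocol and after 14 days by the design text. By the methods, mice were 6 to 10 weeks old.

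Heat shock proteins are chaperones that bind unfolded proteins. Their genes are induced through heat shock factor 1 (HSF1), which binds heat shock elements in promoters when unfolded protein accumulates in the cytosol. The UPR answers the same problem in the endoplasmic reticulum (ER) through the membrane sensors ATF6, IRE1 (*Ern1*) and PERK (*Eif2ak3*), which act through cleaved ATF6, spliced XBP1 and ATF4, and T cells engage it when they expand their secretory capacity or lack nutrients.

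The promoter sequences were searched for response elements by a single exact spelling of each, so other forms of an element are missed. The table of RefSeq promoters (GRCm38.p6, 250 bases before to 50 bases after a start site) held 32 of the 40 genes, and was searched on both strands for 4 motifs. The ER stress element, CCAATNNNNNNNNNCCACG, was in the promoters of 7 of the 32 (21.9%) and of 0.137% of the 27025 genes of the table. The windows below hold each match in capitals with 10 bases on either side, on the strand where the motif reads as spelled. The spelled letters are alike because the search requires them, and only the free bases (N) and the flanks can differ.
Calr (chr8:84847065-84847103, + strand): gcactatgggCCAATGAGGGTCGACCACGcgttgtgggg
Canx (chr11:50325790-50325828, - strand): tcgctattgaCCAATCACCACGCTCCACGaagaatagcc
Creld2 (chr15:88819510-88819548, - strand): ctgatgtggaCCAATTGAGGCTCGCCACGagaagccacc
Dnajc3 (chr14:118937817-118937855, + strand): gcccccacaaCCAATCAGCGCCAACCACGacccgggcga
Hsp90b1 (chr10:86705523-86705561, + strand): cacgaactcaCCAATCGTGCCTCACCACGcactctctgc
Hsp90b1 (chr10:86705628-86705666, - strand): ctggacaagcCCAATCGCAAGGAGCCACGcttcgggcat
Hspa5 (chr2:34772015-34772053, + strand): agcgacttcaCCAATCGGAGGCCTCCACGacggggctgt
Pdia6 (chr12:17266481-17266519, + strand): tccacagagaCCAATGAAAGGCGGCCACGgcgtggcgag

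The amino acid response element, TGATGNAA, which ATF4 and CHOP are known to bind, was in the promoters of 4 of the 32 (12.5%) and of 4.51% of all genes. The matches are in capitals below. They were picked for display with the ratios of KO to WT known, as their genes include the lowest ratios among the ER stress genes. Their ratios are therefore no test of the motif.
Asns (chr6:7693215-7693242, - strand): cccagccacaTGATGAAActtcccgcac
Chac1 (chr2:119351039-119351066, - strand): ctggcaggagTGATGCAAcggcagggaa
Herpud1 (chr8:94386307-94386334, - strand): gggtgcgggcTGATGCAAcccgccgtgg
Trib3 (chr2:152344029-152344056, + strand): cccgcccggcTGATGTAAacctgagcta

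The heat shock element GAANNTTCNNGAA, whose other form is its own reverse complement, was in the promoters of *Hspd1*, *Hspe1* and *Hsph1* (9.38% of the 32) and of 0.662% of all genes. Those of *Hspa1a*, *Hspa1b*, *Hspb1*, *Dnajb1* and *Bag3*, among others, held no match to this spelling, which does not show that they lack the element. The promoters of *Hsp90aa1*, *Hsp90ab1*, *Hspa8* and *Hsf1* were not in the table. *Hspd1* and *Hspe1* lie head to head on chromosome 1, and their shared promoter held a pair of overlapping matches, given in capitals.
Hspe1 (chr1:55088049-55088081, - strand): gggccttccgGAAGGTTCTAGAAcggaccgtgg
Hspe1 (chr1:55088054-55088086, + strand): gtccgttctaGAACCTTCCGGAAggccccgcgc
The UPR element TGACGTGG was in none of the 32 and in 0.714% of all genes. Read on the other strand it opens with the CCACG that closes the ER stress element, and the other motifs do not share a core. A match describes letters in a window and not a bound site.

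*Hspa1a* and *Hspa1b*, neighbours on chromosome 17 that encode the inducible HSP70, are near-identical copies. Of the 250 bases before their start sites, 247 are the same, and the 3 that differ are in capitals.
Hspa1a (chr17:34972157-34972406, - strand): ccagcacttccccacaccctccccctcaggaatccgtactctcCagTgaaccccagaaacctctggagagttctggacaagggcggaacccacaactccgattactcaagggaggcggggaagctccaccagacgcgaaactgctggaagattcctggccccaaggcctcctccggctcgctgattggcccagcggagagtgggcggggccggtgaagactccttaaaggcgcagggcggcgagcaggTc
Hspa1b (chr17:34959239-34959488, - strand): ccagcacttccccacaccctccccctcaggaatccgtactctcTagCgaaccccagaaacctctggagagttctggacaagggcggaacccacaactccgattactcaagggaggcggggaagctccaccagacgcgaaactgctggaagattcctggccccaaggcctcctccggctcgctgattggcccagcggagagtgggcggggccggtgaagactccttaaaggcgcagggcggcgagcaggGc
The copies extend into the transcripts. Of all 43-base words of the *Hspa1a* transcript, 60.6% are also in that of *Hspa1b*, and 64.2% the other way round. A read from these stretches cannot by itself be assigned to either gene, so the values of both are uncertain. Reads were sequenced in pairs, and a mate outside these stretches can place a pair. The share of words is therefore not the share of reads lost.

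Levels between genes were compared as RPKM (reads scaled by exon length and library size), and differences between genotypes as CPM (counts per library of a common size). The cytosolic chaperones dominated. *Hspa1b* had the highest mean RPKM of the 40, 882 in WT and 640 in KO, followed by *Hsp90ab1* (799 and 683), *Hspa1a* (682 and 473), the constitutive HSP70 gene *Hspa8* (425 and 376) and *Hsp90aa1* (321 and 321). In the ER the highest was *Hspa5*, which encodes BiP, at 205 RPKM in WT and 170.0 in KO, and calreticulin (*Calr*) followed at 174 and 152. Among the transcription factors *Atf4* stood at 97.2 and 93.1 RPKM, above *Xbp1* at 23.2 and 23.02 and *Ddit3* at 10.2 and 8.56. The ATF4 and CHOP target genes *Asns*, *Trib3* and *Chac1* held the last 3 places, all under 3 RPKM.

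**Figure D1:**
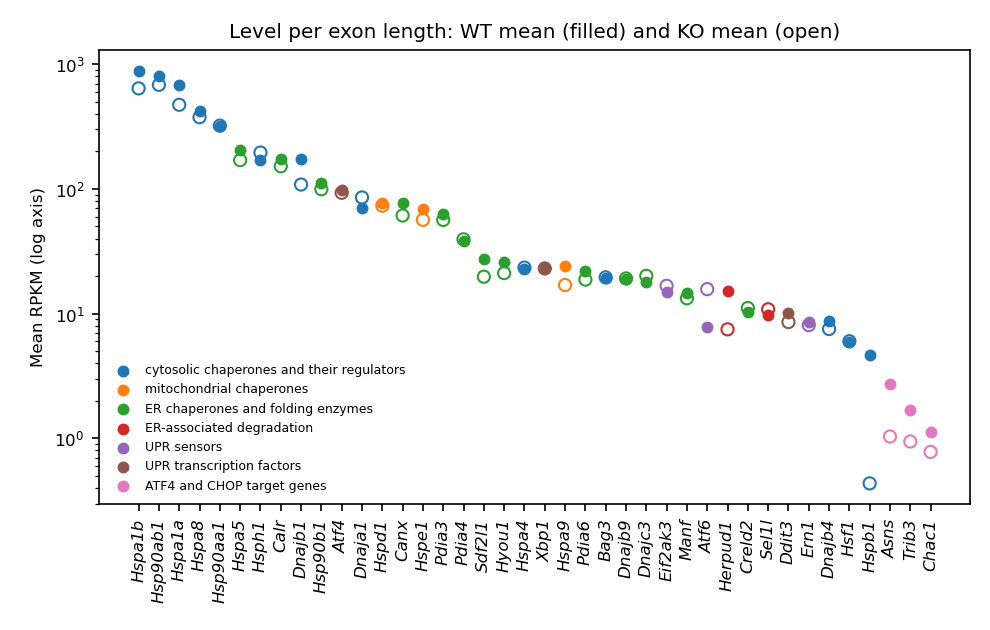
Mean RPKM (log axis) of the 40 genes in WT (filled circles, n = 4) and KO (open circles, n = 4), ordered by mean level and coloured by role. The 5 highest are cytosolic chaperones, and the widest gap between genotypes is at *Hspb1*, at 4.68 RPKM in WT and 0.435 in KO.

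KO and WT were compared by edgeR's quasi-likelihood test, with p-values adjusted by the Benjamini-Hochberg method for the 15378 genes. Of the 40 genes, 1 was higher in KO at an adjusted p under 0.05 (*Atf6*) and 6 were lower (*Hspa1a*, *Hspb1*, *Dnajb1*, *Hspa9*, *Herpud1* and *Asns*). These are 2.5% and 15% of the 40, and 6.31% of all genes tested were higher and 4.98% lower by the same rule. By the study's rule, a 1.5-fold difference with an adjusted p below 0.01, *Atf6* was higher and *Hspb1*, *Dnajb1* and *Herpud1* were lower, where 2.91% of all genes were higher and 1.99% lower. By this rule the 3 lower genes became 1 without S2 or S7 and 5 without S8. In 1 gene every KO sample lay above every WT sample and in 8 every KO sample lay below, that is 2.5% and 20% of the 40, and over all genes the shares were 8.99% and 8.28%. The median log2 fold change of KO over WT was -0.17 over the 40 and -0.014 over all genes tested. Negative values were found in 27 of the 40 and in 7899 of the 15378 genes tested. Together the 40 genes took 1.64% to 1.72% of all counts in the WT samples and 1.31% to 1.51% in the KO samples, without overlap. This share is weighted to the few genes with the most counts, among them *Hspa1a* and *Hspa1b*, whose values are uncertain.

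**Figure D2:**
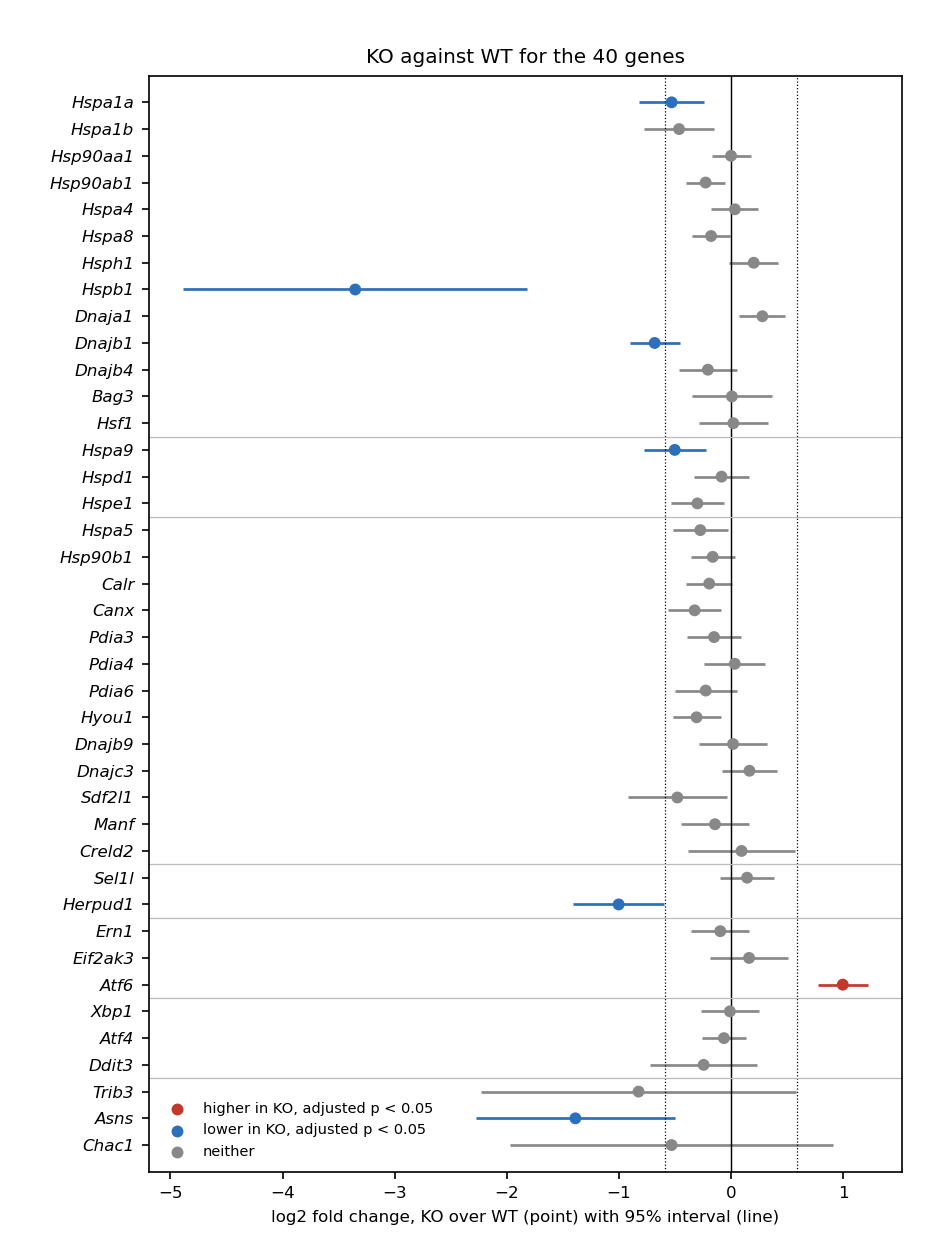
Log2 fold change of KO over WT (points) with its 95% interval (lines) for the 40 genes in the order of their roles, 4 samples per genotype, with dotted lines at a fold change of 1.5. *Atf6* stands alone to the right at 1.00, and *Hspb1* lies farthest to the left at -3.35.

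**Figure D3:**
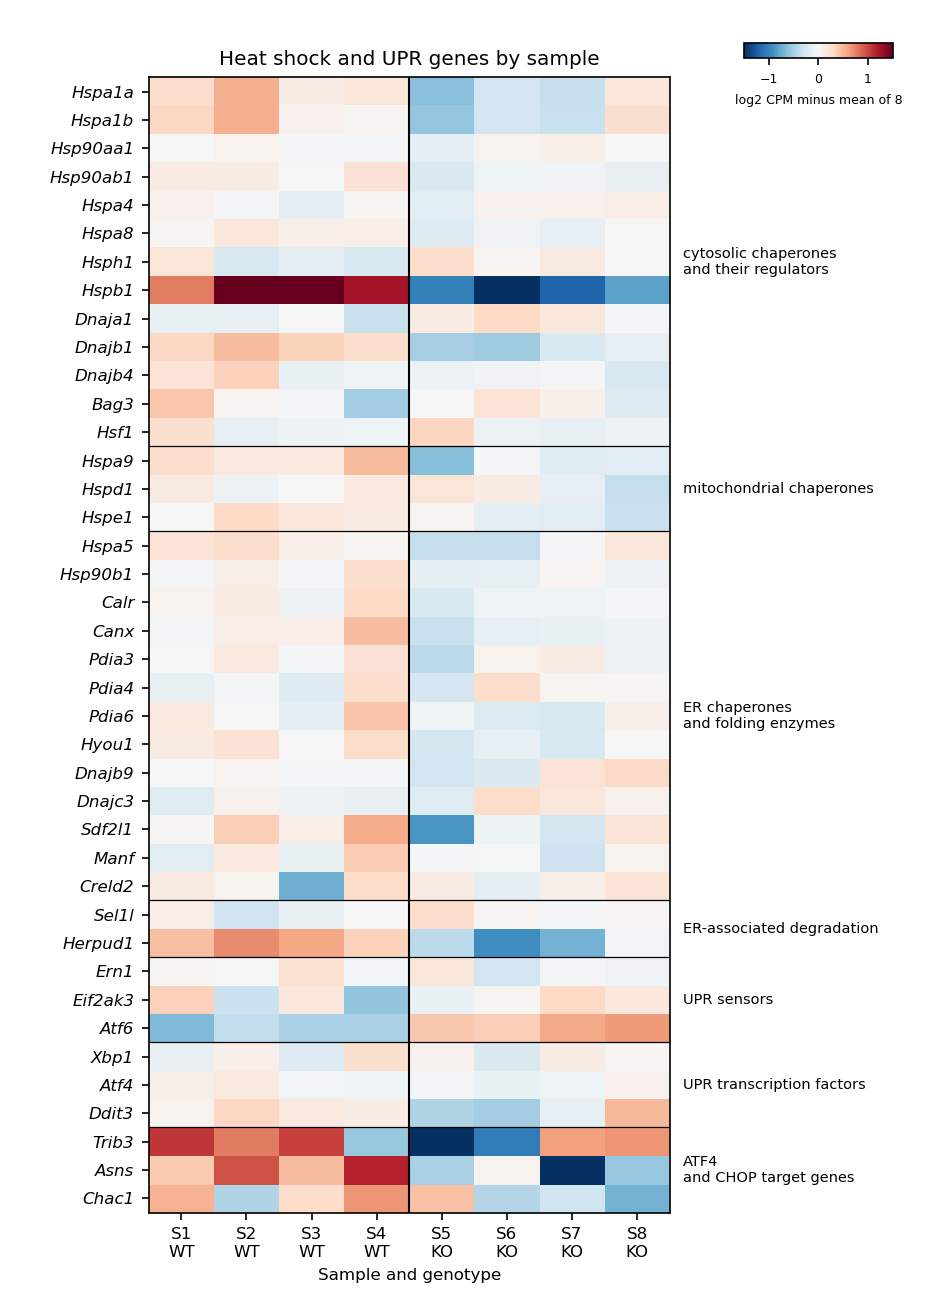
Log2 CPM of each gene in each sample minus its mean over the 8 samples, from blue (lower) to red (higher), with rows in the order of their roles and colours saturating at 1.5. *Atf6* is blue in S1 to S4 and red in S5 to S8, *Hspb1*, *Dnajb1* and *Herpud1* show the reverse, and most ER chaperones differ little.

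Totals were 11657807 to 30295406 counts per sample, and 3 counts correspond to 0.106 to 0.25 CPM. The targeted gene *Kdm1a*, which encodes LSD1, was at 42.7 to 47.3 CPM in WT and 25.2 to 34.8 in KO (log2 fold change -0.55, SE 0.14, adjusted p = 0.0163), from counts over the whole gene. All 8 T cell markers were detected, at a summed 3553 to 4177 CPM in WT and 3217 to 4012 in KO. The 18 myeloid markers summed to 551 to 1693 CPM in WT and 299 to 416 in KO, with 13 of the 17 tested lower, and none of those 17 was at 0 in WT. Markers of B and plasma cells (8) summed to 53.0 to 86.4 CPM in WT and 18.6 to 46.9 in KO, and of fibroblasts (6) to 0.99 to 6.28 and 0.334 to 1.86. Those of epithelial and tumor cells (6) summed to 13.5 to 30.1 CPM in WT and 21.03 to 32.6 in KO. Nearly all of this sum was *Cdh1*, alone at 13.4 to 28.9 CPM in WT and 21.03 to 31.7 in KO. *Krt8*, *Krt19* and *Pdgfrb* were at 0 in every sample. The 12 immediate early genes of tissue dissociation summed to 2440 to 3021 CPM in WT and 2275 to 3084 in KO, and 12 cell cycle genes to 1531 to 2011 and 1301 to 1658. The part of other cells in the results below was not tested.

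Among the UPR sensors, *Atf6* (chr1:170704674-170867771, GRCm38) was at 64.9, 79.2, 73.4 and 73.3 CPM in S1 to S4 and at 136, 133, 152 and 160 CPM in S5 to S8. The genotypes were far apart, with every KO sample well above every WT sample. The mean was 72.7 ± 5.89 CPM (SD, n = 4) in WT and 145 ± 12.9 (SD, n = 4) in KO, a 2.00-fold difference (log2 fold change 1.00, SE 0.11, adjusted p = 8.87e-06). Cleaved ATF6 is a transcription factor that switches on ER chaperone genes. *Ern1*, the IRE1 gene, was at 68.5, 68.3, 79.5 and 66.0 CPM in WT and 76.4, 55.7, 66.5 and 65.4 in KO (log2 fold change -0.10, 95% interval -0.35 to 0.16, adjusted p = 0.702). *Eif2ak3*, which encodes PERK, was at 119, 74.7, 104 and 62.1 CPM in WT and 87.5, 96.4, 115 and 104 in KO (0.16, interval -0.19 to 0.51, adjusted p = 0.62). For both the genotypes overlapped, and the WT samples of *Eif2ak3* spread more widely than those of KO.

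None of the 3 UPR transcription factors passed the test. *Xbp1*, whose mRNA is spliced by IRE1, was at 69.0, 78.5, 65.4 and 88.3 CPM in WT and 78.3, 64.3, 80.4 and 76.0 in KO, a log2 fold change of -0.01 with a 95% interval of -0.27 to 0.25. Spliced and unspliced *Xbp1* are not separate in a table of counts per gene. *Atf4*, which is regulated in part at translation, was at 237, 248, 218 and 214 CPM in WT and 221, 208, 214 and 234 in KO (-0.06, interval -0.26 to 0.13). *Ddit3*, which encodes CHOP, was at 16.2, 19.4, 17.3 and 16.9 CPM in WT and 11.4, 10.9, 14.4 and 21.9 in KO (-0.24, interval -0.72 to 0.23). In *Ddit3*, 3 KO samples lay below every WT sample and S8 above them all, and its exons overlap by 68 bases those of *Mars* on the opposite strand, which held 194% as many counts.

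The 13 ER chaperones and folding enzymes are the genes that the UPR is best known to induce. None of them passed the test in either direction. Their log2 fold changes ran from -0.48 (*Sdf2l1*) to 0.16 (*Dnajc3*) with a median of -0.16. Of the 13, 9 were negative, as were 7899 of all 15378 genes tested. *Hspa5*, or BiP, the chaperone that holds the sensors inactive, was at 905, 942, 828 and 803 CPM in WT and 611, 615, 767 and 883 in KO. In S5, S6 and S7 the value lay below every WT sample and in S8 among them, and the log2 fold change was -0.27 (SE 0.12, 95% interval -0.52 to -0.03, adjusted p = 0.149). Without S8 it was -0.39, with an adjusted p of 0.0259, and without S6 the adjusted p was 0.366. *Hspa5* passed in 1 of 16 alternatives. Calnexin (*Canx*), a lectin chaperone of glycoproteins, was at 313, 343, 342 and 442 CPM in WT and 253, 293, 299 and 304 in KO. The KO samples all lay under the WT samples, with a log2 fold change of -0.32 (SE 0.11) and an adjusted p of 0.0726. The adjusted p was 0.0403 without S1 and 0.252 without S4, and *Canx* passed in 3 of 16 alternatives.

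The other ER genes were spread around a small negative value. *Hyou1*, a large HSP70-like chaperone, had a log2 fold change of -0.31 (adjusted p = 0.0614, 0.0392 without S8 and 0.172 without S4), and *Calr* of -0.19 (adjusted p = 0.235). The protein disulfide isomerases *Pdia3*, *Pdia4* and *Pdia6* lay at -0.15, 0.03 and -0.23, and *Hsp90b1*, which encodes GRP94, at -0.16. *Dnajb9*, a cochaperone of BiP and a known XBP1 target, lay at 0.02 with a 95% interval of -0.29 to 0.32. *Manf* (-0.14) shares exon bases with *Dcaf1* and *Rbm15b*, which limits what its count can show.

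Of the 2 genes of ER-associated degradation, *Herpud1* fell. *Herpud1* (chr8:94386438-94395377), a membrane protein that helps to hand misfolded proteins to the proteasome, was at 33.4, 39.9, 36.4 and 30.9 CPM in S1 to S4 and 18.6, 12.7, 14.9 and 23.7 CPM in S5 to S8. The highest KO sample stayed under the lowest WT sample. The mean was 35.2 ± 3.90 CPM (SD, n = 4) in WT and 17.5 ± 4.82 (SD, n = 4) in KO, 2.00-fold lower (log2 fold change -1.002, SE 0.19, adjusted p = 0.00238). The adjusted p rose above 0.01 without S2 (0.0128) or S7 (0.0112). *Sel1l*, the adaptor of the ubiquitin ligase HRD1, was at 94.1, 71.5, 81.8 and 88.2 CPM in WT and 105, 90.1, 86.6 and 88.7 in KO (0.14, interval -0.10 to 0.39), so the genotypes overlapped.

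The 3 ATF4 and CHOP target genes were low in every sample and all had negative log2 fold changes, of which that of *Asns* passed the test. *Asns* (chr6:7675169-7693254), asparagine synthetase, was at 5.64, 8.39, 5.96 and 9.73 CPM in S1 to S4 and 3.02, 4.45, 1.00 and 2.85 CPM in S5 to S8. The genotypes did not overlap, and the log2 fold change was -1.39 (SE 0.42, adjusted p = 0.0415). The call was lost without S2 (0.115), S3 (0.0533), S4 (0.138), S5 (0.0631), S7 (0.0833) or S8 (0.0751). *Trib3*, a pseudokinase that restrains ATF4, was at 4.65, 3.76, 4.49 and 1.40 CPM in WT and 0.263, 0.97, 3.34 and 3.45 in KO (-0.82, interval -2.23 to 0.58, adjusted p = 0.502), with S4 low among WT and S5 and S6 low among KO. *Chac1*, which degrades glutathione, had 13 to 37 counts per sample and a log2 fold change of -0.53 with an interval of -1.97 to 0.91, so that a difference of this size was not detectable at this depth.

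Of the 13 cytosolic chaperones and regulators, 3 fell (23.1%) and none rose, where 4.98% of all genes were lower and 6.31% higher. *Dnajb1* (chr8:83608193-83612653), the HSP40 that loads clients onto HSP70 and helps to switch HSF1 off, was at 544, 605, 554 and 526 CPM in S1 to S4 and 309, 302, 375 and 403 CPM in S5 to S8. No KO sample reached the level of the lowest WT sample. The mean was 557 ± 33.8 CPM (SD, n = 4) in WT and 347 ± 49.6 (SD, n = 4) in KO, 1.60-fold lower (log2 fold change -0.68, SE 0.11, adjusted p = 0.000378).

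*Hspa1a* was at 2010, 2411, 1800 and 1878 CPM in S1 to S4 and 1079, 1362, 1316 and 1853 CPM in S5 to S8. Its copy *Hspa1b* was at 2572, 3029, 2160 and 2122 CPM in WT and 1386, 1702, 1637 and 2445 in KO. In both genes S2 was the highest of all samples, S5 the lowest, and S8 lay among the WT samples. The log2 fold change was -0.53 (SE 0.14, adjusted p = 0.0176) for *Hspa1a* and -0.46 (SE 0.15, adjusted p = 0.0559) for *Hspa1b*, and with the counts of both summed -0.49 (adjusted p = 0.0324). The call for *Hspa1a* was lost without S2 (0.0800), S6 (0.0537) or S7 (0.0567). *Hspa1b* was called without S8 (-0.65, adjusted p = 0.00221), and without S2 its adjusted p was 0.204. S2 and S8 also had the highest sums of the immediate early genes of dissociation, 3021 and 3084 CPM, and S5 the lowest, 2275 CPM, and the part of dissociation was not tested.

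*Hsph1*, *Dnaja1*, *Bag3*, *Hspa4*, *Dnajb4* and *Hsf1* itself did not pass the test. *Hsph1*, the HSP110 exchange factor, had a log2 fold change of 0.20 (SE 0.10, adjusted p = 0.248). Its adjusted p was 0.0371 without S1 and 0.503 without S2. *Dnaja1*, another HSP40, had a log2 fold change of 0.28 (SE 0.10, adjusted p = 0.0754, 0.0408 without S8 and 0.215 without S6). The exons of *Dnaja1* overlap by 608 bases those of *Smu1* on the opposite strand, which held 4.73% as many counts. *Bag3*, a cochaperone of HSP70 in autophagy, lay at 0.01 with a 95% interval of -0.35 to 0.36, *Hspa4* at 0.03 and *Hsf1* itself at 0.02 with an interval of -0.29 to 0.33. *Dnajb4* lay at -0.21 (adjusted p = 0.334).

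The constitutive chaperones moved little. *Hsp90ab1* was at 2412, 2380, 2228 and 2567 CPM in WT and 1906, 2114, 2138 and 2038 in KO, without overlap, at a log2 fold change of -0.23 (SE 0.08, adjusted p = 0.0877). *Hspa8* was at 1744, 1921, 1803 and 1842 CPM in WT and 1495, 1664, 1583 and 1720 in KO, also without overlap, at -0.18 (SE 0.08, adjusted p = 0.19). The stress-inducible *Hsp90aa1* differed by 0.00 with a 95% interval of -0.17 to 0.17, and its 8 samples lay between 1147 and 1339 CPM.

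*Hspb1* (chr5:135887919-135889563), which encodes the small heat shock protein HSP27, was low in all samples, at 2.33, 6.76, 6.94 and 3.30 CPM in S1 to S4 and 0.591, 0, 0.501 and 0.703 CPM in S5 to S8. These are 40 to 124 counts in a WT sample and 0 to 20 in a KO sample, where 3 counts in S6, the sample at 0, would be 0.242 CPM. The genotypes did not overlap, and the log2 fold change was -3.35 (SE 0.73, adjusted p = 0.0057), with adjusted p above 0.01 without S2 (0.036), S3 (0.0274), S4 (0.0111) or S7 (0.0151). The myeloid marker sum was 551, 686, 1693 and 940 CPM in S1 to S4 and 390, 416, 311 and 299 CPM in S5 to S8, and its part in the result was not tested. In bulk samples, fewer cells with a transcript and less of it per cell cannot be told apart.

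Of the 3 mitochondrial chaperones, *Hspa9* fell. *Hspa9*, or mortalin, the HSP70 of the matrix that pulls proteins through the import channel, was at 103, 95.4, 95.3 and 120 CPM in WT and 55.4, 84.2, 75.7 and 77.0 in KO. The genotypes did not overlap, with S5 the lowest of all, and the log2 fold change was -0.50 (SE 0.13, adjusted p = 0.0194), lost without S4 (0.0786). The HSP60 gene *Hspd1* was at 218, 188, 197 and 219 CPM in WT and 224, 215, 181 and 154 in KO (-0.08, interval -0.33 to 0.16), and S5 was the highest and S8 the lowest. Its partner HSP10, *Hspe1*, had a log2 fold change of -0.30 (SE 0.11, adjusted p = 0.0974). The pair overlaps on opposite strands by 112 bases of exon, and whether the counting used strand is not given in the sources used here.

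**Figure D4:**
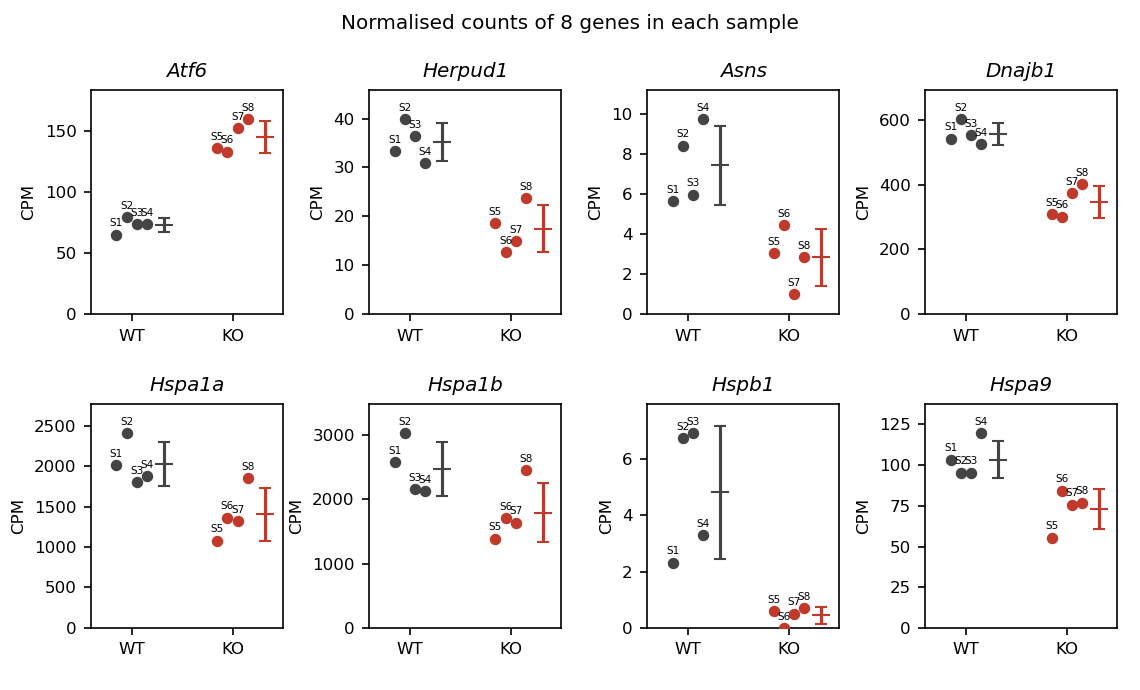
CPM of 8 genes in each sample (points, labelled S1 to S8) with the mean and SD of the 4 samples of a genotype (bars at the side), on linear axes from 0. WT and KO do not overlap in *Atf6*, *Herpud1*, *Asns*, *Dnajb1*, *Hspb1* and *Hspa9*, and S8 lies among WT in *Hspa1a* and *Hspa1b*.

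Set beside the promoter motifs, the 7 genes with the ER stress element had log2 fold changes of -0.32 to 0.16 with a median of -0.19, and none passed the test. The 4 genes with the amino acid response element, *Herpud1*, *Asns*, *Trib3* and *Chac1*, had log2 fold changes of -1.39 to -0.53 with a median of -0.91, and *Herpud1* and *Asns* passed. The 3 genes with the heat shock element lay between -0.30 and 0.20 and none passed. These are descriptions of few genes, and the promoter of *Atf6* was not in the table. The amino acid response element was displayed with these values known, and *Asns*, *Trib3* and *Chac1* were low in every sample. The share called among all genes with a motif was not computed, so no link between motif and difference was tested.

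Within a genotype the genes did not rank the samples evenly. Of the KO samples, S5 was the lowest in 19 of the 40 genes and S8 the highest in 20. Of the WT samples, S3 was the lowest in 13 and S4 the highest in 16. S8 was also the deepest sample, and genes of one sample share its library, so these counts describe the samples.

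The rest of the pathways was read from 129 tested genes on 6 lists. Of these, 4 were higher (3.1%) and 11 lower (8.53%) at an adjusted p under 0.05, where the shares over all genes were 6.31% and 4.98%, and the median log2 fold change was -0.12. The higher genes became 1 without S6 and 2 without S2, S4 or S5, and the lower became 5 without S2 or S7, 6 without S4 and 7 without S5 or S6. Every KO sample lay below every WT sample in 23 of the 129 (17.8%) and above in 7 (5.43%), where the shares over all genes were 8.28% and 8.99%. By the study's rule, none was higher and 3 were lower (*Ddit4*, *Shmt2* and *Dnaja4*). With DESeq2 and the same thresholds 2 were higher, and 46 of the 129 had an unadjusted p under 0.05 in edgeR. Over all genes, 3774 of the 15378 tested had such a p.

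The list of the integrated stress response, the branch that ends in ATF4, had 5 genes lower and 2 higher of 24. These are 20.8% and 8.33%, where the shares over all genes were 4.98% and 6.31%. *Ddit4*, or REDD1, a brake on mTORC1, was at 171, 235, 188 and 236 CPM in WT and 117, 91.7, 111 and 128 in KO, without overlap (log2 fold change -0.89, SE 0.13, adjusted p = 0.000182). *Shmt2*, the mitochondrial serine hydroxymethyltransferase, had a log2 fold change of -0.64 (SE 0.13, adjusted p = 0.00423), and *Psat1*, of serine synthesis, of -0.77 (SE 0.20, adjusted p = 0.0177). *Phgdh*, which opens the same serine pathway, was higher (0.69, SE 0.18, adjusted p = 0.0213), as was *Eif2ak4*, the amino acid sensor GCN2 (0.73, SE 0.20, adjusted p = 0.0262). *Ppp1r15a*, or GADD34 (-0.58), and *Pck2* (-1.03) were the other 2 that fell, named after their values were seen. None of the 13 genes on the list of aminoacyl-tRNA synthetases, which also holds the tRNA exporter *Xpot*, passed in edgeR, with a median of -0.13. An unadjusted p under 0.05 was found in 4 of them, and in 3774 of all 15378 genes tested. In 5 of the 13 (38.5%) every KO sample lay below every WT sample and in none above. Over all genes tested the shares were 8.28% and 8.99%.

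Among 30 other cytosolic chaperones and cochaperones, 2 fell and 2 rose, 6.67% each, with a median of -0.03. Over all genes tested, 4.98% were lower and 6.31% higher, so these shares are near those of all genes. *Dnaja4*, an HSP40, was at 58.4, 48.6, 47.6 and 39.4 CPM in WT and 20.6, 20.3, 7.34 and 17.4 in KO (log2 fold change -1.56, SE 0.24, adjusted p = 0.000427), and *Bag2*, an HSP70 cochaperone, had a log2 fold change of -1.27 (SE 0.39, adjusted p = 0.0432). The HSP90 cochaperones *Fkbp5* (0.54, SE 0.13, adjusted p = 0.0101) and *Chordc1* (0.52, SE 0.14, adjusted p = 0.0217) rose. Of the 14 subunits of the CCT chaperonin and prefoldin, which fold actin and tubulin, 13 had negative values. *Cct5* (-0.49) and *Cct6a* (-0.53) passed, 14.3% of the 14. Over all genes tested, 7899 of 15378 had negative values. Of 37 further genes of ER folding and degradation, *Ergic1* (-0.53), of ER to Golgi transport, and *Creb3l2* (-0.49), an ER-bound transcription factor, fell (5.41%). None of the 11 genes of mitochondrial quality control passed in edgeR. An unadjusted p under 0.05 was found in 3 of the 11, and in 3774 of all 15378 genes tested.

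**Figure D5:**
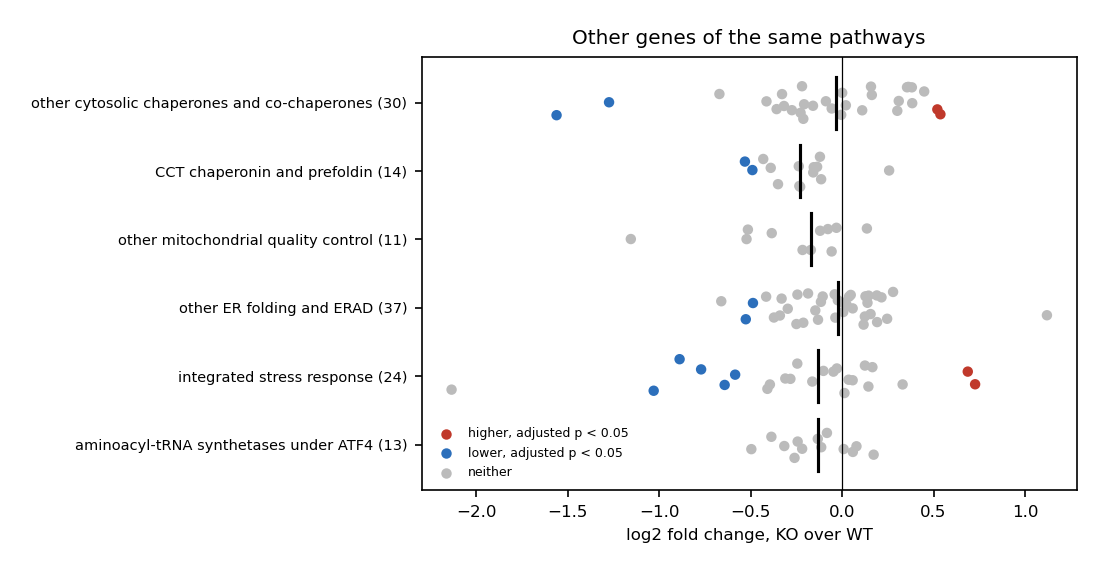
Log2 fold change of KO over WT for the 129 further genes on 6 lists, each point a gene and each black bar the median of its list, with the number tested in brackets. The integrated stress response holds 5 lower and 2 higher genes, and the lists of tRNA synthetases and mitochondrial quality control hold none of either. Over all genes tested, 4.98% were lower and 6.31% higher.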

How the data were processed

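RNA-seq gene counts were analysed for 4 WT and 4 KO samples of sorted CD8+ TILs, each from other mice. The authors used STAR and GRCm38 for alignment and featureCounts with GENCODE genes for counting, and deposited raw counts per gene; the strand setting is not given in the sources used here. The authors' own GC correction and DESeq2 test were not used. The genotype of a column was read from the sample names in the study's principal component plot and could not be tied to replicate numbers. The 40 genes and the other lists were chosen with earlier results of these data known.

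Genes were filtered with filterByExpr, scaled with TMM factors and tested with glmQLFTest in edgeR 4.0.16 (R 4.3.3), without covariates, and p-values were adjusted over 15378 genes. Each standard error is the size of the log2 fold change divided by the root of F. The fit was checked on simulated data, and log2 CPM used a prior count of 2. For exon lengths, coordinates and overlaps the GENCODE M21 annotation of GRCm38 was used (55154 of 55335 identifiers matched), and for promoters RefSeq. Genes given in every sample were those with an adjusted p under 0.05, a fold change above 1.5, no overlap between genotypes or the highest level of their role, the UPR sensors and transcription factors, and the HSP70 copies. From each other list up to 5 called genes were named. The smallest exact two-sided permutation p over the 70 arrangements of 4 against 4 is 0.0286. Counts of all pairs of samples of a genotype differed by more than sampling noise (median chi-square per gene 4.9 to 8.56, against 0.45 for noise alone). Limits from counts do not cover PCR duplication, as copies of a molecule are not independent. Alternatives were other scaling, filters, DESeq2 1.42.0, protein-coding genes, a GC offset (mgcv 1.9.3) and leaving out each sample.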

Additional observations from a re-analysis of the deposited data

Results flagged for a closer look

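In 3 of 80 groups of 4 samples, a gene's highest or lowest sample stood apart from the rest, its gap to the nearest sample being most of the range of the group (Dixon's criterion), and chance gives about 4. In KO, *Hspa4* was at 6.84 log2 CPM in S5 and 7.06 to 7.09 in the others (gap over range 0.849). In KO, *Hsf1* was at 5.72 log2 CPM in S5 and 5.27 to 5.32 in the others (0.881). In KO, *Hspb1* was at -3 log2 CPM in S6, which is 0 counts with the prior count, and at -0.68 to -0.27 in the others (0.852). S5 is the sample that was lowest of KO in 19 of the 40 genes.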

How the results depend on the processing

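No change of scaling, filter, test or genes tested, and no left-out sample, turned the direction of a gene past the threshold. *Atf6*, *Dnajb1*, *Herpud1* and *Hspb1* kept an adjusted p under 0.05 in all 16 alternatives each. Of the single values, 613 kept their side of the threshold, 10 lost the threshold and 19 passed it. The 613 include genes not called whose direction turned, such as *Hspd1* (log2 fold change 0.01 without S8). They also include a comparison of RPKM with CPM, which has no threshold. The 6 lower genes of the 40 became 9 with DESeq2 and 4 to 8 without 1 sample. The 1 higher gene became 2 with DESeq2 and 1 to 2 without 1 sample. By fold change and adjusted p under 0.01, the 3 lower genes became 1 to 5 without 1 sample (1 without S2 or S7, 5 without S8), and the 1 higher gene stayed 1. Of the 129 further genes, the 4 higher became 7 with DESeq2 and 1 to 6 without 1 sample (1 without S6, 2 without S2, S4 or S5), and the 11 lower 5 to 14 (5 without S2 or S7, 6 without S4, 7 without S5 or S6). By the stricter rule their 0 higher became 2 with DESeq2, 1 with no filter on low counts and 0 to 1 without 1 sample, and their 3 lower 2 to 4. The cause was not tested. DESeq2 also called *Hsp90ab1*, *Canx* and *Hyou1* lower and *Dnaja1* higher. *Hspa1b* was called in 8 of 17 alternatives and *Hspa1a* in 14 of 17.

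A GC offset from exons was not run, since no genome was at hand; one from GENCODE M21 transcripts, chosen with the data seen, gave 7 lower and 1 higher, and the summed HSP70 copies were added likewise. No scaling moved the median of all genes by more than 0.1. No paired analysis was possible because the columns carry no replicate numbers of the labels. Depth limits *Hspb1*, *Asns*, *Trib3* and *Chac1*, which lie under 10 CPM.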
